A study of Mus musculus with 6 samples.

Results

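The 49 genes described here encode enzymes that break down amino acids in the liver. They were taken by symbol from a list of enzymes that uses no measured value in its rule but was drawn up with earlier results of these data known, and all 49 were found among the 54532 genes of the deposited table. They divide into 5 genes of tyrosine, 6 of tryptophan, 4 of histidine, 14 of branched-chain amino acid, 3 of proline, 5 of glycine and serine, 7 of sulphur amino acid and 2 of lysine degradation, and 3 aminotransferases. Their RNA was measured in whole liver of mice with G3bp1 knocked out in hepatocytes (HKO, 3 libraries) and of litter controls with the floxed allele alone (Flox, 3 libraries). Both groups had eaten high-fat food for 12 weeks from an age of 6 weeks. G3BP1 is an RNA-binding protein of stress granules, and the study asked how it acts in non-alcoholic steatohepatitis, an inflamed form of fatty liver. The sources used here do not give the promoter of the Cre recombinase or the deleted exons, and cells other than hepatocytes keep the gene. Since no label ties each library to its own animal, the p-values speak for the spread among these libraries alone, and that spread may be technical.

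The liver is the main site at which amino acids from food and from muscle protein are degraded. Their nitrogen passes through aminotransferases and ammonia-releasing enzymes to urea, and their carbon enters the citric acid cycle, glucose, ketone bodies or lipid. The degradation of tyrosine and histidine and most of that of methionine take place in the hepatocyte cytosol, and the later steps for branched-chain amino acids, proline, glycine and lysine in its mitochondria. Branched-chain amino acids are the exception in that their amino group is removed mostly outside the liver. Many of these enzymes are known to follow glucagon, glucocorticoids and dietary protein.

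Levels are given in FPKM, the authors' deposited unit, reads scaled to gene length and to the library size the authors used. That size was 1.01 to 1.06 times the assigned reads in HKO and 0.934 to 1.03 times in Flox. G3bp1 stood at 4.66, 4.27 and 4.44 FPKM in the HKO livers, against 8.46, 8.46 and 9.10 FPKM in the Flox livers. Every HKO library thus lay below every Flox library, in the direction of the labels (log2 fold change -0.83, SE 0.0879, 95% confidence interval -1.03 to -0.62, adjusted p = 0.11 in limma). Libraries held 15804115 to 17954066 reads in genes. A member had between 152 and 73468 reads in a library, with a median of 4404. Means are given ± SD over the 3 libraries of a group. All 7 hepatocyte markers checked, among them Alb and Ttr, were high in every library, and the kidney markers, of a tissue with many of the same enzymes, summed to 0.0442 to 0.148 FPKM in HKO and 0.0107 to 0.165 FPKM in Flox.

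The enzymes were slightly lower in HKO than in Flox livers as a set, and none passed the test alone. Of the 49 members 47 had a lower mean in HKO on the authors' scaling, 44 scaled by assigned reads, 40 under quantile normalization and 33 under TPM. TPM, which fixes the sum of each library, moved the median log2 fold change of all genes to 0.14, and 47 members lay below that median. The members' median log2 fold change was -0.21, or a difference of -13.8%, beside -0.0054 over the 11856 genes tested. Fold changes are HKO minus Flox on log2(FPKM + 1), which slightly understates those of the lowest members. A mean lower in HKO was found in 51.2% of all genes tested. All 49 members passed the filter on low values, and 0 of 49 had an adjusted p under 0.05 in limma, with adjustment over the whole table, against 0.00843% of all genes tested that were called lower and 0% called higher. Before adjustment, 4 members had p under 0.05 in limma, all lower in HKO. These 4 are 8.16% of the members, beside 4.55% of all genes, and 0 members were higher, beside 3.08%. In voom on recovered reads 8 were lower at that p, beside 4.44% of all genes, and 0 passed after adjustment. Every HKO library lay below every Flox library in 14 members, or 28.6% of them, where the share among all genes was 7.21%. The opposite order occurred in 0 members and in 6.06% of all genes. The count of 14 rests on the scaling, since it was 9 scaled by assigned reads (all genes 4.34%), 3 under quantile normalization (5.98%) and 3 under TPM (2.06%). A mean of at least 5 FPKM was found in 5200 genes, 48 members among them. Of these 5200, 59.9% had a lower mean in HKO, and 6.12% were lower at an unadjusted p under 0.05 in limma. Every HKO library lay below every Flox library in 9.69%. Their median log2 fold change was -0.049, beside -0.22 for the 48 members, of which 46 were lower.

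**Figure D1:**
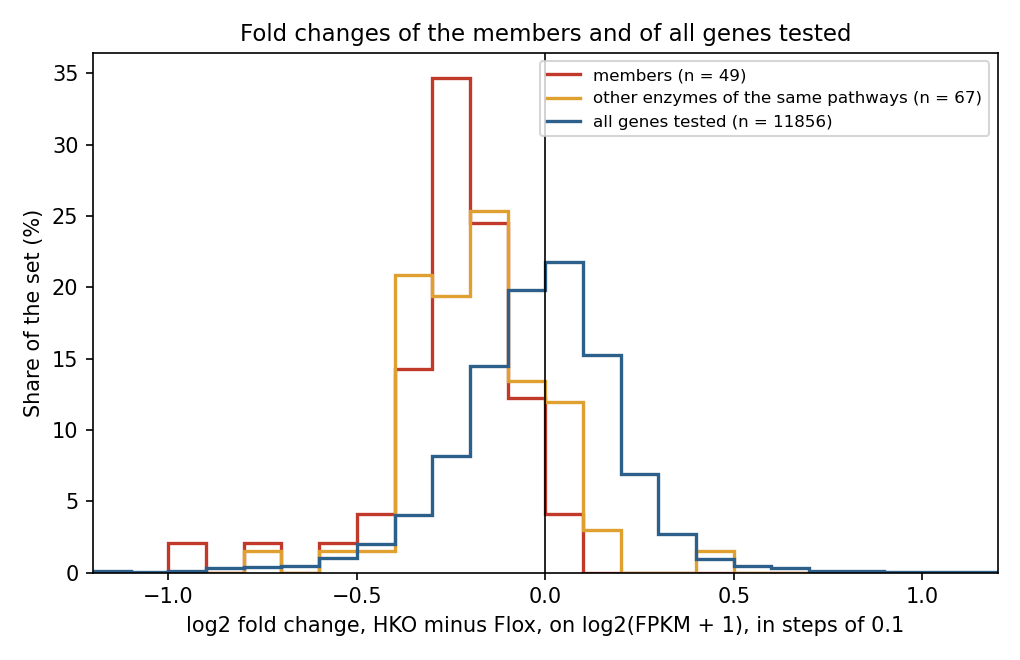
Share of each gene set (y axis, %) by log2 fold change, HKO minus Flox on log2(FPKM + 1) (x axis, steps of 0.1), for the 49 members, 67 other tested enzymes of the same pathways and all 11856 genes tested. On the authors' scaling the members' curve peaks left of 0, with a median of -0.21, while that of all genes is centred near 0. Under TPM the members' median was -0.044.

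The libraries of a group did not stand together. Centred on each gene's mean over 6 libraries, the members' median log2 level was -0.22, -0.13 and -0.0018 in HKO 1, HKO 2 and HKO 3 and 0.18, 0.17 and -0.014 in Flox 1, Flox 2 and Flox 3. HKO 3 and Flox 3 thus lay next to each other, with HKO 3 above Flox 3 in 24 of 49 members, and the distance between the groups came from the other 4 libraries. HKO 1 held the lowest value of 26 members and HKO 2 of 17, and Flox 1 held the highest of 20 and Flox 2 of 18. HKO 1 lay below all 3 Flox livers in 37 members, HKO 2 in 34 and HKO 3 in 22. Over all genes tested those shares were 26.2%, 28.7% and 28.1%. The members took 2.10%, 2.24% and 2.58% of assigned reads in the HKO livers, against 2.79%, 2.73% and 2.55% in the Flox livers, and the groups overlap in this share through HKO 3 and Flox 3. Without Flox 3 the count of members with no overlap was 35 (all genes 19.2%), and without HKO 3 it was 26 (12.2%). The number lower in HKO at an unadjusted p under 0.05 was 17 without Flox 3 (all genes 8.63%) and 9 without HKO 3 (4.11%). It was 2 without Flox 1 (2.34%) or HKO 2 (2.56%), and 0 passed the adjusted threshold in each case. In whole liver tissue, fewer hepatocytes and less of these RNAs per hepatocyte cannot be told apart.

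**Figure D2:**
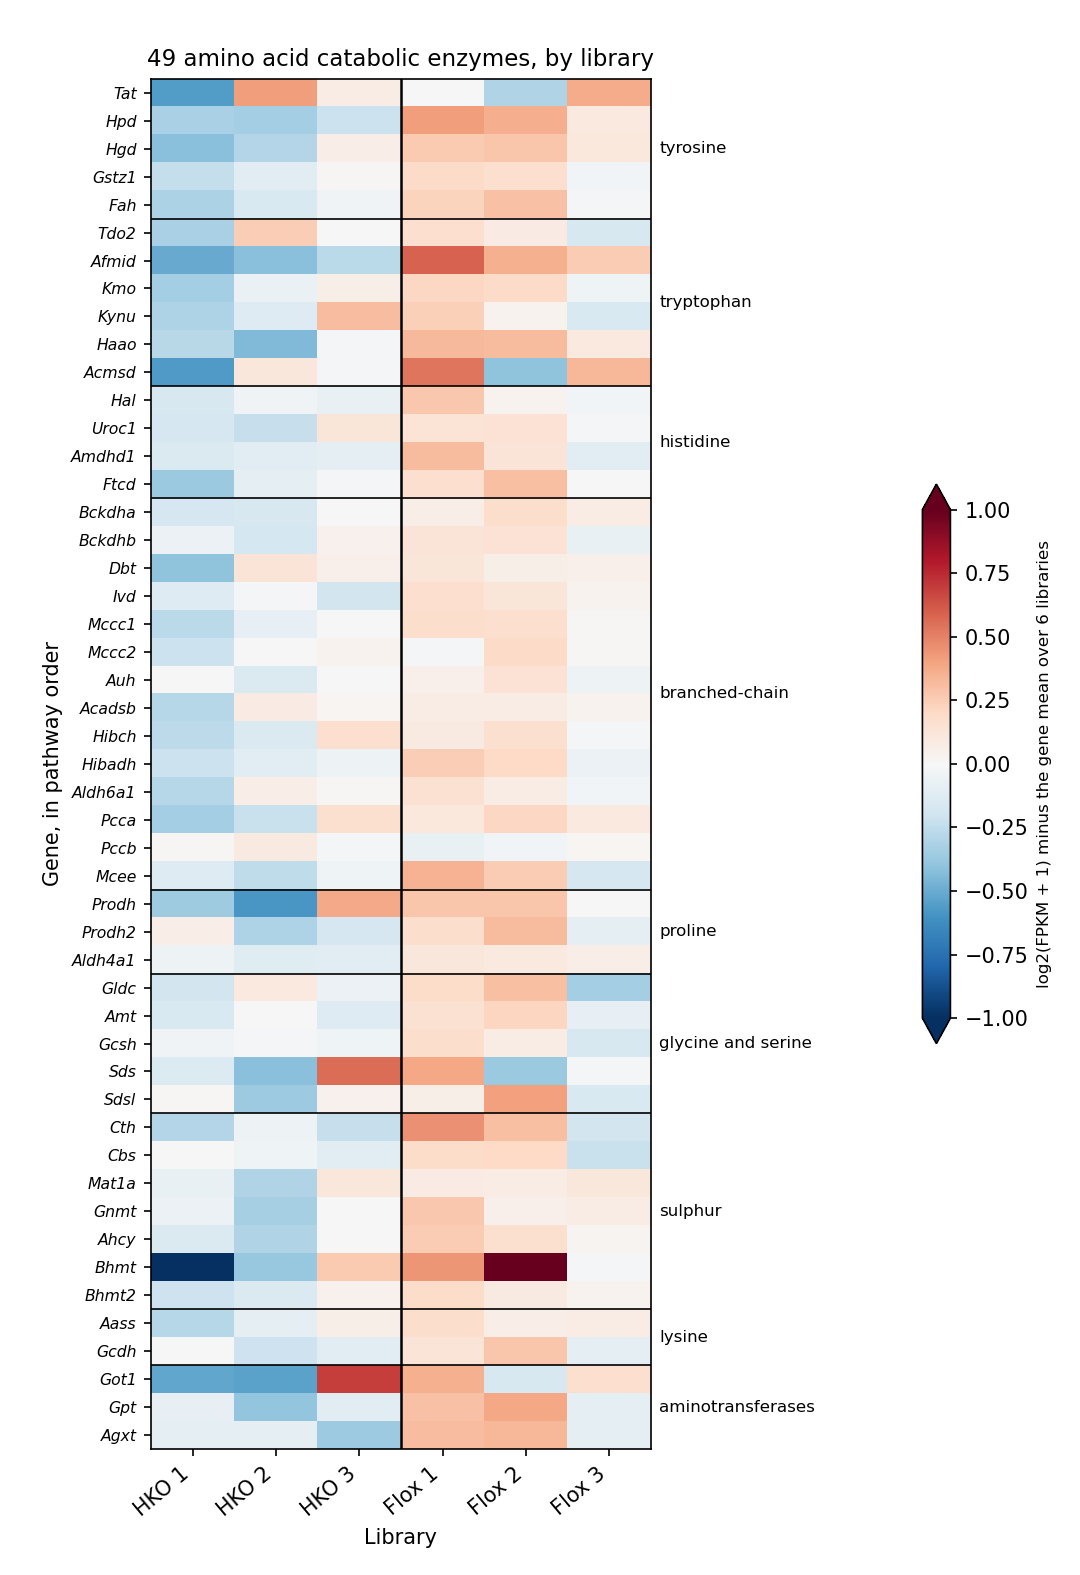
Each row is a member in pathway order and each column a library, HKO left of Flox; colour gives log2(FPKM + 1) minus the gene's mean over 6 libraries, with values beyond -1 and 1 shown at the end colours. HKO 1 and HKO 2 are mostly blue, Flox 1 and Flox 2 mostly red, and HKO 3 and Flox 3 pale, while Tat, Sds, Prodh and Got1 break the pattern.

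The tyrosine pathway held some of the clearest differences. Its 5 enzymes work in series, and all 5 had a lower mean in HKO (median log2 fold change -0.33, and -0.15 under TPM). On the authors' scaling 3 had no overlap (60%, beside 7.21% of all genes). Such counts rest on the scaling, as 3 of all 49 members were without overlap under TPM (all genes 2.06%). Tat, tyrosine aminotransferase, which opens the pathway and is the classic target of glucocorticoids in liver, stood at 377, 740.2 and 583 FPKM in the HKO livers, against 552, 451 and 716 FPKM in the Flox livers. Its highest value was in HKO 2 and its lowest in HKO 1, so the groups overlapped fully, and its sign turned under each of the other 3 scalings (log2 fold change -0.044, SE 0.281, 95% confidence interval -0.71 to 0.62, adjusted p = 0.974 in limma). Hpd, which makes homogentisate (ENSMUSG00000029445, chromosome 5, 123171807 to 123182727 on the minus strand), stood at 693, 687 and 750.4 FPKM in the HKO livers, against 1164, 1122 and 931 FPKM in the Flox livers. All 3 HKO livers were lower and close together, and the mean differed by -33.8% from that of Flox (log2 fold change -0.59, SE 0.140, 95% confidence interval -0.92 to -0.26, adjusted p = 0.58 in limma). Hgd, homogentisate dioxygenase, opens the aromatic ring and stood at 175, 192 and 246 FPKM in the HKO livers, against 282, 286 and 254 FPKM in the Flox livers. HKO 3 came near Flox 3, and the other HKO livers were further down (log2 fold change -0.43, SE 0.157, 95% confidence interval -0.80 to -0.062, adjusted p = 0.648 in limma). Fah, which splits fumarylacetoacetate in the last step and whose loss causes a hereditary tyrosinaemia in humans, stood at 229.5, 258 and 280.0 FPKM in the HKO livers, against 335, 351 and 282 FPKM in the Flox livers (log2 fold change -0.33, adjusted p = 0.651 in limma). HKO 3 and Flox 3 were nearly equal in it. Gstz1, the isomerase before Fah, averaged 150.2 ± 13.03 FPKM in HKO and 176 ± 14.4 FPKM in Flox, with HKO 3 above Flox 3 (log2 fold change -0.23, adjusted p = 0.685 in limma).

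Sequences before the RefSeq start are shown for 3 genes of this pathway. Hgd and Fah were taken for their small p and Tat for its wide spread. The choice was among members with a single window and no annotated exon in it. Agxt, Got1 and Acmsd were taken by the same rule, and of these Got1 is printed further below. Each run is the 250 bases before the RefSeq start (GRCm38.p6), 5′ to 3′ in the direction of the gene, and holds no annotated exon. By the deposited coordinates Fah starts at 84606722, so its run lies inside the gene rather than before it. Capitals mark matches on either strand to the TATA box (TATAAA), the CCAAT box (CCAAT), the core bound by C/EBP factors (TTGCNNAA), the HNF4 motif (CAAAGTCCA), the HNF1 motif (GTTAATNA), the glucocorticoid receptor hexamer (TGTTCT) and the hexamer of other nuclear receptors (AGGTCA). No matches overlap in the runs printed. The regions are Tat chr8:109990186-109990435 on the plus strand, Hgd chr16:37579903-37580152 on the plus strand and Fah chr7:84605943-84606192 on the minus strand.
Tat: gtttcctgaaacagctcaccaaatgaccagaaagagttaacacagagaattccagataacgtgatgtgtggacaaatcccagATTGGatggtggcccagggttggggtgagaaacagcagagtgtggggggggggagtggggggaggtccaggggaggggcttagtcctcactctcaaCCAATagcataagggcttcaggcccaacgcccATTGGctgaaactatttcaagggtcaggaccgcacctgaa
Hgd: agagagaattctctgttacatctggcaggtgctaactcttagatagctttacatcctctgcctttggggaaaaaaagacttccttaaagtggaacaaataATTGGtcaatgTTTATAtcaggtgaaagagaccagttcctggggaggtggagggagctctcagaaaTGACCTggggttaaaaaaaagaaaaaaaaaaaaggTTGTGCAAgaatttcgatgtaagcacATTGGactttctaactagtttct
Fah: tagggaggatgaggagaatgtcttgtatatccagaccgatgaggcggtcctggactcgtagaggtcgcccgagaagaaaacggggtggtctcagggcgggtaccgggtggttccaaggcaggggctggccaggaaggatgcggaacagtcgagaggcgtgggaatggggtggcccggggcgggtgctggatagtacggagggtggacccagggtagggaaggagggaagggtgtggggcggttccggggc

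Tat held 3 CCAAT boxes, Hgd held a TATA box, 2 CCAAT boxes, a C/EBP core and a nuclear receptor hexamer, and Fah held 0 matches. Of the 49 members 42 had a RefSeq promoter entry, as did 27025 genes in all. In the counts that follow, a gene with several entries counted if any of them held a match, and windows with annotated exons were kept. The CCAAT box occurred in 26 (61.9%, beside 37.5% of all), the TATA box in 4 (9.52%, beside 14.3% of all) and the C/EBP core in 6 (14.3%, beside 10.8% of all). The nuclear receptor hexamer occurred in 15 (35.7%, beside 15.8% of all) and that of the glucocorticoid receptor in 4 (9.52%, beside 18.2% of all). The HNF1 motif occurred in 4 (9.52%, beside 2.73% of all), namely Haao, Ftcd, Bckdhb and Prodh2, and the HNF4 motif in 0 (0%, beside 0.451% of all). A match describes letters in this window and no binding.

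The kynurenine pathway of tryptophan held the member with the smallest p. All 6 enzymes had a lower mean in HKO (median -0.27, and -0.12 under TPM), with values from -0.79 to -0.054. The median was -0.12 without HKO 1 and -0.16 without Flox 1. Tdo2, tryptophan dioxygenase, which controls entry into the pathway in liver, stood at 386, 574 and 485 FPKM in the HKO livers, against 544, 512 and 433 FPKM in the Flox livers. HKO 2 was its highest and HKO 1 its lowest library (log2 fold change -0.054, SE 0.181, 95% confidence interval -0.48 to 0.37, adjusted p = 0.938 in limma), and its sign turned under the same 3 scalings. Afmid, the formamidase that follows Tdo2 (ENSMUSG00000017718, chromosome 11, 117825924 to 117839908 on the plus strand), stood at 4.795, 5.16 and 5.81 FPKM in the HKO livers, against 11.4, 9.49 and 8.78 FPKM in the Flox livers. These values rest on 301, 305 and 381 reads in HKO and 618, 499 and 522 reads in Flox. Every HKO liver was below every Flox liver, and the mean differed by -46.8% from that of Flox (log2 fold change -0.79, SE 0.122, 95% confidence interval -1.08 to -0.51, adjusted p = 0.455 in limma); over the alternatives its adjusted p ran from 0.163 to 0.955. Afmid starts inside the first part of Tk1, a thymidine kinase gene on the other strand, and both share 169 bases. Tk1 stood at 3.13, 3.23 and 2.02 FPKM in the HKO livers, against 4.34, 4.44 and 3.62 FPKM in the Flox livers, also with no overlap (log2 fold change -0.45, adjusted p = 0.648 in limma). It was picked out once its values were known. The library kit does not mark strand, and 2.35% of the exonic bases of Afmid lie in Tk1 exons, where reads of the pair cannot be told apart. A further 44.2% lie in exons of the read-through gene Gm20708, which was listed at 0 reads in all 6 libraries.

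Haao, a dioxygenase late in the branch towards NAD (ENSMUSG00000000673, chromosome 17, 83831356 to 83846790 on the minus strand), stood at 346, 309 and 418 FPKM in the HKO livers, against 526, 524 and 449.9 FPKM in the Flox livers. HKO 2 was the lowest and Flox 3 the lowest of its group (log2 fold change -0.49, SE 0.155, 95% confidence interval -0.85 to -0.12, adjusted p = 0.648 in limma). Acmsd, which turns the pathway away from NAD synthesis, stood at 3.90, 6.84 and 6.17 FPKM in the HKO livers, against 9.52, 4.496 and 8.13 FPKM in the Flox livers, from 196, 323 and 324 reads in HKO and 414, 189 and 387 reads in Flox. It was the most variable member of the pathway, with HKO 2 and HKO 3 inside the Flox range (log2 fold change -0.31, adjusted p = 0.756 in limma). The mono-oxygenase gene Kmo averaged 67.9 ± 9.52 FPKM in HKO and 79.96 ± 7.502 FPKM in Flox, and the kynureninase gene Kynu averaged 33.1 ± 7.75 FPKM in HKO and 34.7 ± 4.84 FPKM in Flox. The groups overlapped in each, with adjusted p = 0.688 and 0.902 in limma. The enzymes on either side of the formamidase step thus differed in how far the groups lay apart, but these differences between genes were not tested.

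Histidine degradation showed small, even differences. All 4 enzymes had a lower mean in HKO, with log2 fold changes from -0.32 to -0.18 (median -0.21, and -0.028 under TPM). Ftcd, which hands the last carbon and nitrogen of the histidine ring to folate, stood at 103, 124 and 132 FPKM in the HKO livers, against 149.7, 164 and 133 FPKM in the Flox livers (log2 fold change -0.32, SE 0.145, 95% confidence interval -0.66 to 0.023, adjusted p = 0.667 in limma). HKO 3 lay just under Flox 3. Hal, the ammonia-lyase that opens the pathway, averaged 81.6 ± 3.65 FPKM in HKO and 92.9 ± 10.4 FPKM in Flox. Uroc1, the urocanase, averaged 99.2 ± 13.3 FPKM in HKO and 112 ± 6.599 FPKM in Flox. Amdhd1, which opens the imidazolone ring, averaged 119 ± 2.30 FPKM in HKO and 140.2 ± 20.2 FPKM in Flox. Hal did not overlap between groups, while HKO 3 lay above Flox 3 in Uroc1 and Amdhd1. Hal and Amdhd1 are neighbours on chromosome 10, 4033 bases apart on opposite strands with 0 protein-coding genes between them.

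Of the 14 branched-chain enzymes 13 had a lower mean in HKO, with a median log2 fold change of -0.16; under TPM the median was 0.014, on the other side of 0 but still below the median of all genes. No overlap was seen in 3 of them (21.4%, beside 7.21% of all genes), Bckdha, Ivd and Mccc1. These 3 are among the 23 mitochondrial members, of which 0 were without overlap under TPM or quantile normalization. Bckdha and Bckdhb encode the E1 subunits of the branched-chain keto acid dehydrogenase, the committed step. Bckdha stood at 31.0, 31.1 and 35.1 FPKM in the HKO livers, against 36.6, 39.6 and 36.9 FPKM in the Flox livers (log2 fold change -0.21, adjusted p = 0.667 in limma). Bckdhb stood at 39.5, 36.3 and 42.4 FPKM in HKO and 45.0, 45.5 and 39.2 FPKM in Flox, with HKO 1 and HKO 3 above Flox 3 (log2 fold change -0.13, adjusted p = 0.753 in limma). The ratio of Bckdhb to Bckdha was 1.22 ± 0.0548 in HKO and 1.15 ± 0.0848 in Flox (SD, n = 3), and the groups overlapped. Bckdha is uncertain because 61.7% of its exonic bases are shared with B3gnt8 on the other strand, although B3gnt8 itself averaged 0.218 ± 0.0620 FPKM in HKO and 0.227 ± 0.00557 FPKM in Flox. Dbt, the E2 subunit of the same complex, averaged 29.5 ± 5.74 FPKM in HKO and 32.4 ± 0.909 FPKM in Flox and was low in HKO 1 alone, at 22.9 FPKM.

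On the leucine branch, Ivd, isovaleryl-CoA dehydrogenase, stood at 39.6, 43.0 and 38.1 FPKM in the HKO livers, against 49.004, 47.3 and 44.4 FPKM in the Flox livers. The 3 HKO livers lay below the Flox livers (log2 fold change -0.22, SE 0.104, 95% confidence interval -0.46 to 0.026, adjusted p = 0.667 in limma). The carboxylase that follows is built from Mccc1 and Mccc2. Mccc1 stood at 3.99, 4.71 and 5.01 FPKM in the HKO livers, against 5.81, 5.79 and 5.07 FPKM in the Flox livers, with HKO 3 close under Flox 3 (log2 fold change -0.24, adjusted p = 0.667 in limma). Mccc2 stood at 21.6, 25.1 and 25.9 FPKM in HKO and 24.9, 29.0 and 25.5 FPKM in Flox, and its groups overlapped (log2 fold change -0.13, adjusted p = 0.762 in limma). The ratio of Mccc2 to Mccc1 was 5.30 ± 0.117 in HKO and 4.77 ± 0.424 in Flox, without overlap, and exact permutation could give no p below 0.1 here. Auh, the hydratase of the same branch, was the member with the lowest level, at 4.11 ± 0.292 FPKM in HKO and 4.47 ± 0.376 FPKM in Flox.

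On the valine and isoleucine branches, Aldh6a1, methylmalonate semialdehyde dehydrogenase, had the highest level of the group at 66.6, 85.3 and 82.2 FPKM in HKO and 90.6, 85.8 and 79.9 FPKM in Flox. HKO 1 alone lay outside the Flox range in it (log2 fold change -0.14, adjusted p = 0.771 in limma), and 18.6% of its exonic bases overlap Bbof1 on the other strand. On the valine side, the hydrolase gene Hibch averaged 11.5 ± 2.002 FPKM in HKO and 12.9 ± 0.855 FPKM in Flox. The dehydrogenase gene Hibadh averaged 35.5 ± 2.13 FPKM in HKO and 42.7 ± 4.81 FPKM in Flox. Acadsb, the isoleucine dehydrogenase, averaged 20.9 ± 2.89 FPKM in HKO and 22.7 ± 0.335 FPKM in Flox. In these 3 genes the groups overlapped, and their adjusted p ran from 0.667 to 0.775 in limma. Propionyl-CoA, an end product of both branches, is carboxylated by Pcca and Pccb subunits. Pcca stood at 13.3, 14.6 and 19.3 FPKM in the HKO livers, against 18.5, 19.97 and 18.4 FPKM in the Flox livers (log2 fold change -0.27, adjusted p = 0.685 in limma). Pccb stood at 72.7, 76.9 and 71.2 FPKM in the HKO livers, against 68.7, 70.9 and 73.3 FPKM in the Flox livers and was the branched-chain enzyme with a higher mean in HKO (log2 fold change 0.052, SE 0.101, 95% confidence interval -0.19 to 0.29, adjusted p = 0.888 in limma). The interval for Pccb does not reach the members' median. The ratio of Pccb to Pcca was 5.46, 5.28 and 3.69 in the HKO livers and 3.72, 3.55 and 3.98 in the Flox livers, high in HKO 1 and HKO 2 and within the Flox range in HKO 3. Mcee, the epimerase after this step, stood at 35.6, 32.5 and 37.9 FPKM in HKO and 50.0, 46.8 and 34.7 FPKM in Flox, and Flox 3 was at the HKO level (log2 fold change -0.29, adjusted p = 0.685 in limma).

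**Figure D3:**
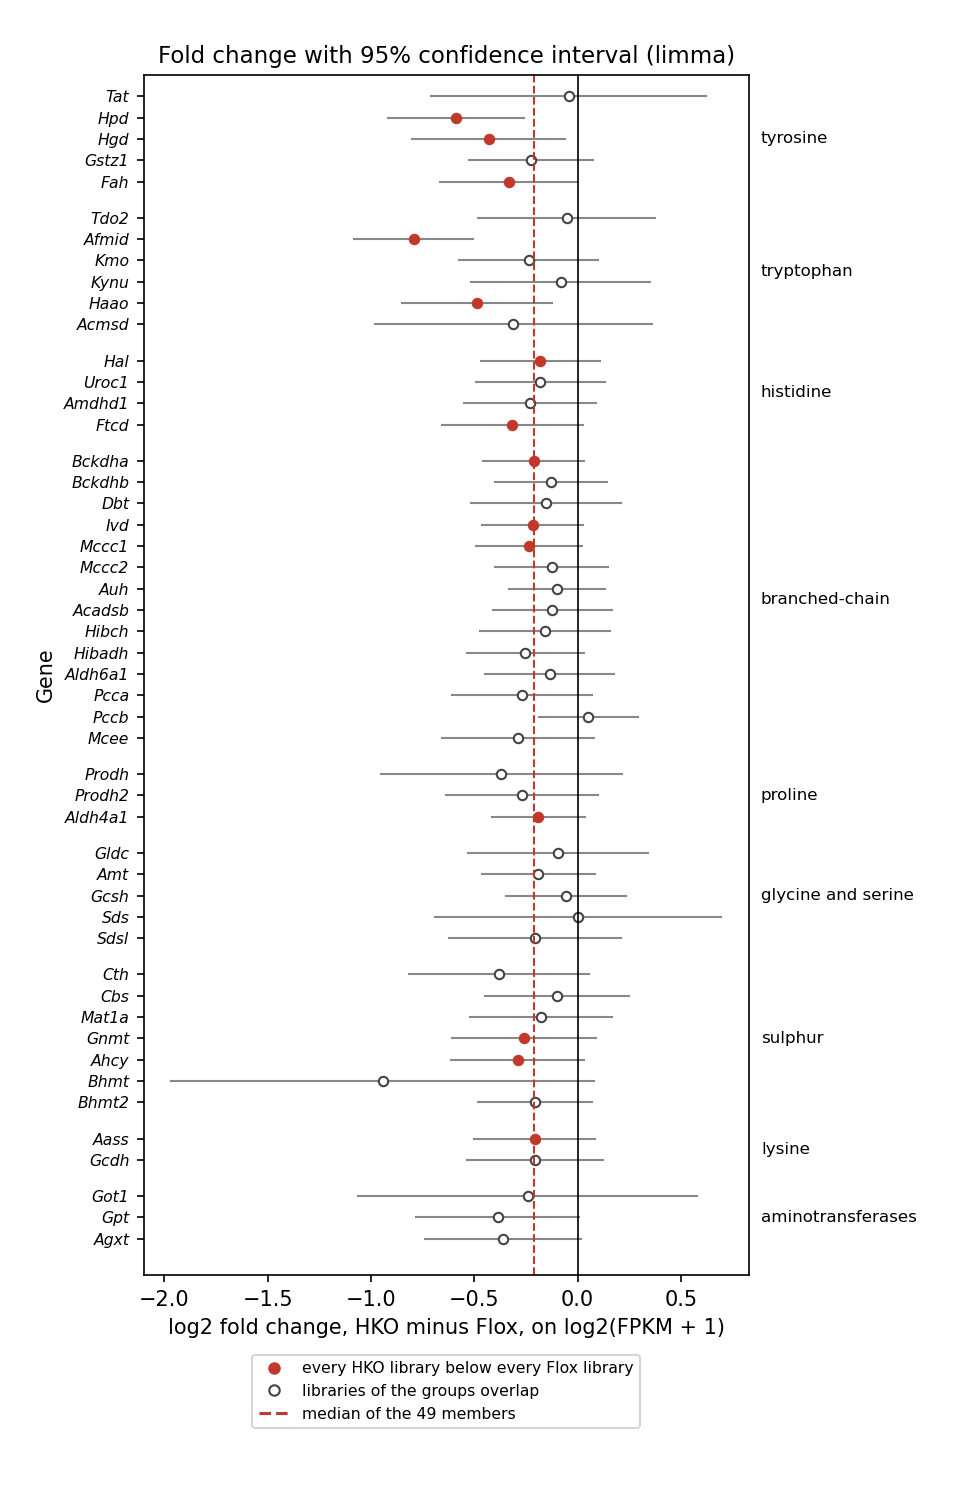
Points are log2 fold changes, HKO minus Flox on log2(FPKM + 1) (x axis), with 95% confidence intervals from limma, for the 49 members by pathway (y axis); filled points mark the 14 members in which every HKO library lay below every Flox library, and the dashed line is the members' median of -0.21. On the authors' scaling 47 points lie left of 0, against 33 under TPM, and the intervals of 4 members, Hpd, Hgd, Afmid and Haao, leave out 0.

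All 3 proline genes had a lower mean in HKO (median -0.27, and -0.093 under TPM), and they differed in spread. The median was -0.18 without HKO 2 and -0.14 under quantile normalization. Prodh, proline dehydrogenase, stood at 19.8, 16.8 and 33.7 FPKM in the HKO livers, against 31.3, 31.3 and 25.7 FPKM in the Flox livers. HKO 3 was its highest library and HKO 2 its lowest (log2 fold change -0.37, SE 0.246, 95% confidence interval -0.95 to 0.21, adjusted p = 0.709 in limma). Prodh2, which acts on hydroxyproline, stood at 112, 86.5 and 95.1 FPKM in the HKO livers, against 121, 134 and 101 FPKM in the Flox livers (log2 fold change -0.27, adjusted p = 0.687 in limma), and here HKO 1 lay inside the Flox range while HKO 3 did not. Aldh4a1, the dehydrogenase that follows both, stood at 48.0, 45.7 and 46.1 FPKM in the HKO livers, against 54.2, 53.5 and 52.4 FPKM in the Flox livers. It had the narrowest spread of all members, a pooled SD of 0.0314 on the log2 scale, and the groups did not overlap (log2 fold change -0.19, SE 0.0953, 95% confidence interval -0.42 to 0.033, adjusted p = 0.676 in limma). Of its exonic bases 32.5% are shared with the read-through gene Gm21969, which had at most 3 reads in a library.

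Glycine and serine enzymes had the median closest to 0 on the authors' scaling, with 4 of 5 lower in HKO and a median log2 fold change of -0.094, which was 0.058 under quantile normalization and 0.083 under TPM. It was -0.054 without HKO 1, -0.17 without HKO 3, -0.053 without Flox 2, -0.28 without Flox 3 and -0.027 without Flox 1. Amt and Gcsh encode the T and H proteins of the mitochondrial glycine cleavage system. Amt stood at 21.3, 23.8 and 21.7 FPKM in the HKO livers, against 26.6, 27.8 and 22.4 FPKM in the Flox livers, with HKO 2 alone above Flox 3 (log2 fold change -0.19, adjusted p = 0.689 in limma). Gcsh stood at 71.5, 72.6 and 71.1 FPKM in the HKO livers, against 82.7, 77.0 and 65.2 FPKM in the Flox livers. Its HKO livers lay within a narrow band inside the Flox range (log2 fold change -0.057, SE 0.122, 95% confidence interval -0.34 to 0.23, adjusted p = 0.898 in limma). Gldc, the P protein that binds glycine, averaged 59.2 ± 5.89 FPKM in HKO and 64.2 ± 14.4 FPKM in Flox, with Flox 3 the lowest library (log2 fold change -0.094, adjusted p = 0.888 in limma). Sds, a serine dehydratase that feeds glucose synthesis, stood at 59.9, 49.1 and 97.2 FPKM in the HKO livers, against 86.4, 50.6 and 65.1 FPKM in the Flox livers. HKO 3 was its highest and HKO 2 its lowest library (log2 fold change 0.0020, SE 0.292, 95% confidence interval -0.69 to 0.70, adjusted p = 0.999 in limma), and 21.3% of its exonic bases overlap Plbd2 on the other strand. The related gene Sdsl, 3715 bases away on the opposite strand, stood at 8.21, 6.08 and 8.40 FPKM in HKO and 8.48, 11.1 and 7.19 FPKM in Flox, from 218, 152 and 233 reads in HKO and 195, 247 and 181 reads in Flox (log2 fold change -0.21, adjusted p = 0.748 in limma). The pair did not share an order of libraries, as HKO 3 was highest in Sds and Flox 2 in Sdsl.

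The methionine cycle held the most abundant member and the most variable one. All 7 sulphur enzymes had a lower mean in HKO (median -0.26, and -0.083 under TPM). Mat1a makes S-adenosylmethionine and averaged 842 ± 121 FPKM in HKO and 945 ± 12.8 FPKM in Flox, with HKO 3 the highest library (log2 fold change -0.18, adjusted p = 0.746 in limma). Gnmt, which uses surplus S-adenosylmethionine to methylate glycine, had the highest level of all members and stood at 1051, 869 and 1093 FPKM in the HKO livers, against 1317, 1131 and 1155 FPKM in the Flox livers. The groups did not overlap, and HKO 3 was close under Flox 2 (log2 fold change -0.26, SE 0.148, 95% confidence interval -0.61 to 0.087, adjusted p = 0.685 in limma). Ahcy, which releases homocysteine, stood at 437, 392.3 and 483 FPKM in the HKO livers, against 575, 539 and 491 FPKM in the Flox livers, again without overlap (log2 fold change -0.29, adjusted p = 0.667 in limma). Its transcript is 99.7% identical over 82% of its length to Gm4737, so reads of both could be split in ways the table does not show; Gm4737 averaged 98.3 ± 10.7 FPKM in HKO and 105 ± 7.55 FPKM in Flox. Bhmt, which remethylates homocysteine with betaine (ENSMUSG00000074768, chromosome 13, 93616675 to 93637961 on the minus strand), stood at 175, 331 and 519 FPKM in the HKO livers, against 586, 859 and 425 FPKM in the Flox livers. HKO 1 was far below and Flox 2 far above the others, and HKO 3 lay between Flox 3 and Flox 1. It had the largest fold change of all members and the largest spread, a pooled SD of 0.662 on the log2 scale (log2 fold change -0.94, SE 0.429, 95% confidence interval -1.97 to 0.081, adjusted p = 0.667 in limma). Its neighbour Bhmt2, 17758 bases away on the same strand, stood at 65.2, 68.1 and 77.7 FPKM in the HKO livers, against 86.0, 80.4 and 77.2 FPKM in the Flox livers and varied far less (log2 fold change -0.21, adjusted p = 0.685 in limma). The ratio of Bhmt to Bhmt2 was 2.68, 4.86 and 6.67 in the HKO livers and 6.82, 10.7 and 5.50 in the Flox livers. In the transsulphuration branch, which turns homocysteine into cysteine, Cbs averaged 179.9 ± 6.91 FPKM in HKO and 195 ± 30.8 FPKM in Flox. Cth averaged 139 ± 12.3 FPKM in HKO and 184 ± 40.4 FPKM in Flox. Flox 3 lay below all HKO livers in Cbs and below HKO 2 in Cth, and neither passed (adjusted p = 0.844 and 0.667 in limma).

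Both lysine enzymes had a log2 fold change of -0.21 (-0.030 in the median under TPM). Aass, which starts the main route of lysine degradation, stood at 58.6, 67.3 and 74.5 FPKM in the HKO livers, against 80.7, 74.8 and 75.4 FPKM in the Flox livers, with HKO 3 just under Flox 2 (log2 fold change -0.21, SE 0.124, 95% confidence interval -0.50 to 0.085, adjusted p = 0.688 in limma). Gcdh, glutaryl-CoA dehydrogenase, stood at 223, 193 and 206 FPKM in the HKO livers, against 243, 269 and 209 FPKM in the Flox livers, and HKO 1 lay above Flox 3 (log2 fold change -0.21, adjusted p = 0.71 in limma).

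The 3 aminotransferases had the lowest median of the pathways, -0.36 (-0.18 under TPM), and none was free of overlap. Gpt, alanine aminotransferase, stood at 97.3, 78.4 and 95.7 FPKM in the HKO livers, against 127, 135 and 96.1 FPKM in the Flox livers. Flox 3 was at the HKO level, and HKO 1 was slightly above it (log2 fold change -0.39, SE 0.167, 95% confidence interval -0.78 to 0.0052, adjusted p = 0.651 in limma). Agxt, which detoxifies glyoxylate in peroxisomes, stood at 210.1, 211 and 175 FPKM in the HKO livers, against 278, 282 and 210.2 FPKM in the Flox livers. HKO 2 exceeded Flox 3 slightly, and HKO 3 was the lowest library (log2 fold change -0.36, SE 0.161, 95% confidence interval -0.74 to 0.018, adjusted p = 0.661 in limma). Got1, the cytosolic aspartate aminotransferase, stood at 62.1, 61.4 and 145 FPKM in the HKO livers, against 115, 80.1 and 100.4 FPKM in the Flox livers. HKO 3 was the highest of all 6 libraries and the other HKO livers were the lowest, so that its interval is wide (log2 fold change -0.24, SE 0.345, 95% confidence interval -1.06 to 0.58, adjusted p = 0.84 in limma). Got1 is shown because it had the widest spread of the members after Bhmt and the most CCAAT boxes among the runs printed, 5 beside a nuclear receptor hexamer in the 250 bases before its start (Got1 chr19:43524606-43524855 on the minus strand, written as above with matches in capitals).
Got1: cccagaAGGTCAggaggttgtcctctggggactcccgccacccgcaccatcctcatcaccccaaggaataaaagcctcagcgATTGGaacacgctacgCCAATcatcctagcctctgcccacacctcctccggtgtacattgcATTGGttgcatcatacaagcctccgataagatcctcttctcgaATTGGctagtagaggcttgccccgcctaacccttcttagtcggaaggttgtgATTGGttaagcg

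**Figure D4:**
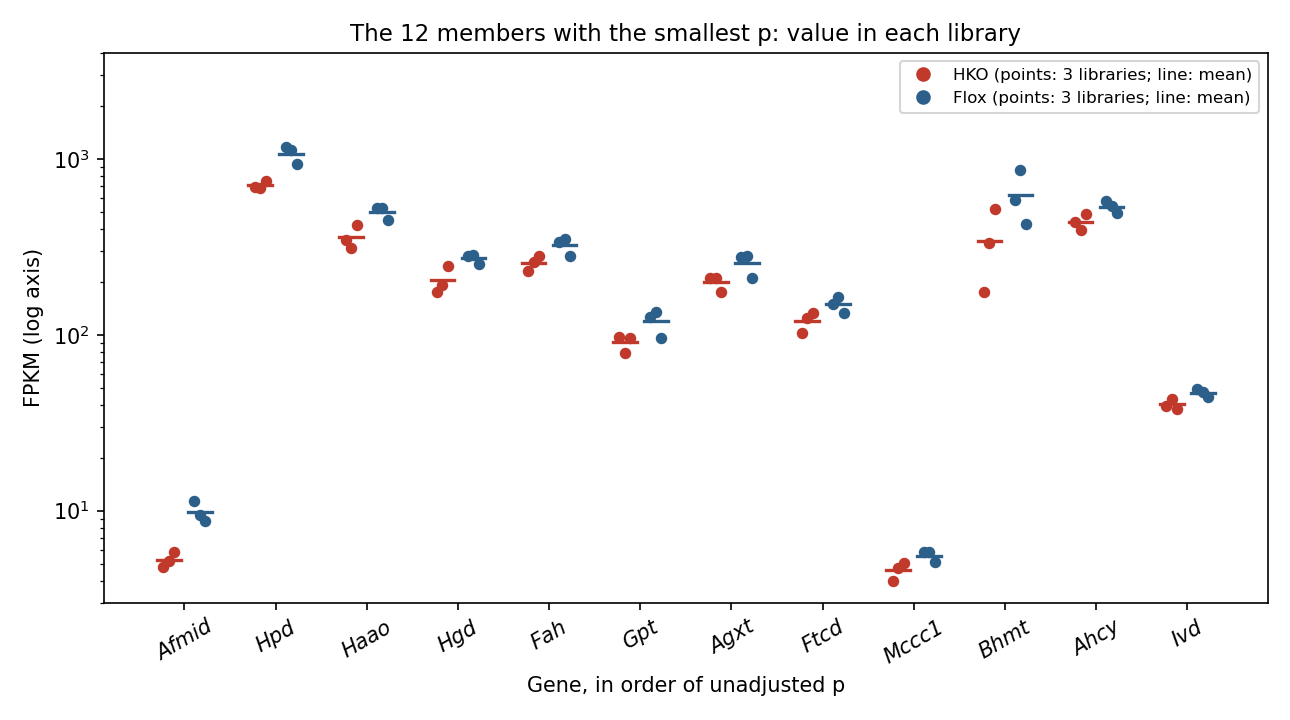
FPKM on a log axis (y) for the 12 members with the smallest unadjusted p (x), with HKO left of Flox; points are the 3 libraries of each group and lines the group means. Afmid (5.26 FPKM in HKO and 9.88 in Flox) and Hpd (710.4 FPKM in HKO and 1073 in Flox) are clear of overlap, while the Bhmt points of both groups interleave.

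Across members the spread between libraries of a group ran from 0.0314 (Aldh4a1) to 0.662 (Bhmt) on the log2 scale, with a median of 0.150. The difference between groups was larger than this pooled SD in 34 of 49 members (69.4%), beside 37.7% of all genes tested. Scaled by assigned reads it was so in 28 members (57.1%, beside 39.1% of all genes), and under TPM in 12 (24.5%, beside 46.1% of all genes). Bhmt, Got1, Sds, Acmsd, Tat and Prodh had the widest spread, and they did not share an order of libraries: HKO 3 was the highest in Got1, Sds and Prodh, HKO 2 in Tat, Flox 1 in Acmsd and Flox 2 in Bhmt.

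**Figure D5:**
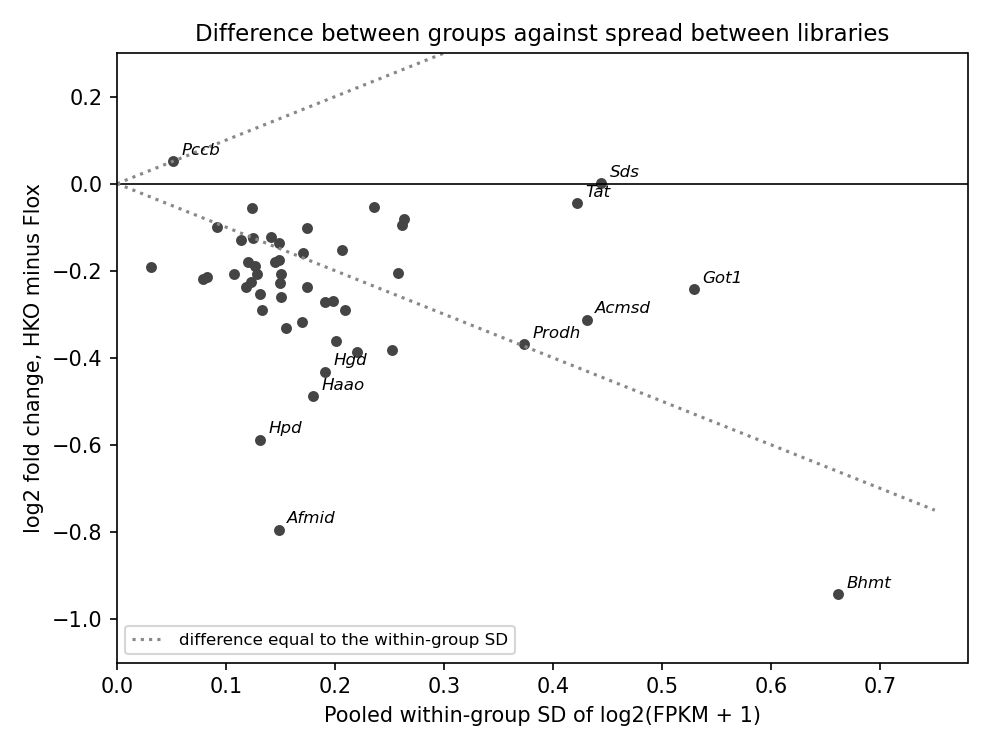
Log2 fold change, HKO minus Flox (y axis), against the pooled within-group SD of log2(FPKM + 1) (x axis) for the 49 members; dotted lines mark a difference equal to that SD. Afmid and Hpd combine a large difference (-0.79 and -0.59) with a small spread, Bhmt has a large difference (-0.94) with the widest spread, and Sds and Tat have a wide spread with a difference near 0 (Tat is above 0 under TPM).

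By the compartment in which the enzymes are known to work, 24 of 25 cytosolic members had a lower mean in HKO, with a median log2 fold change of -0.24 and no overlap in 9. Of the 23 mitochondrial members 22 were lower, with a median of -0.19 and no overlap in 5. No overlap thus occurred in 36.0% of the cytosolic and 21.7% of the mitochondrial members, beside 7.21% of all genes. Under TPM the counts were 3 cytosolic and 0 mitochondrial, with 19 of 25 and 13 of 23 lower. The 4 members at an unadjusted p under 0.05 are all cytosolic, or 16.0% of the 25, beside 4.55% of all genes. The difference between compartments was not tested. The cytosolic score was -0.28, -0.23 and 0.00098 in the HKO livers and 0.26, 0.16 and -0.0088 in the Flox livers, and the mitochondrial score was -0.18, -0.087 and -0.0043 in the HKO livers and 0.15, 0.17 and -0.014 in the Flox livers. In both compartments HKO 3 and Flox 3 lay together near 0.

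Other enzymes of the same pathways, taken from a list of 71 beside the members, were also mostly lower. Of 67 tested 56 had a lower mean in HKO, with a median log2 fold change of -0.18, 0 passed over all genes in limma, 13 were lower and 0 higher at an unadjusted p under 0.05, and in 21 every HKO library lay below every Flox library. These are 19.4% and 31.3% of the 67, beside 4.55% and 7.21% of all genes. Under TPM, 35 of 68 tested were lower, with a median of -0.0085, 2 lower and 1 higher at that p and 7 without overlap (10.3%, beside 2.06% of all genes). In sulphur degradation, the thiosulphate sulphurtransferase gene Tst averaged 72.4 ± 4.41 FPKM in HKO and 100.4 ± 10.9 FPKM in Flox (log2 fold change -0.46, adjusted p = 0.588 in limma). Suox, sulphite oxidase, averaged 51.2 ± 3.79 FPKM in HKO and 65.7 ± 6.66 FPKM in Flox. In both genes every HKO liver was below every Flox liver, with HKO 3 the nearest. Aldh7a1, a lysine enzyme, averaged 91.1 ± 1.88 FPKM in HKO and 114 ± 7.91 FPKM in Flox. Qprt, which takes the product of Haao towards NAD, averaged 71.5 ± 7.22 FPKM in HKO and 93.2 ± 10.99 FPKM in Flox. Pipox, which oxidises sarcosine and pipecolate, averaged 105 ± 6.67 FPKM in HKO and 133 ± 12.5 FPKM in Flox. The groups did not overlap in these 3 genes either. Shmt2 and Shmt1 encode the mitochondrial and cytosolic enzymes that exchange serine and glycine. Shmt2 averaged 70.3 ± 4.22 FPKM in HKO and 86.5 ± 6.46 FPKM in Flox, and Shmt1 averaged 51.0 ± 5.66 FPKM in HKO and 62.9 ± 4.36 FPKM in Flox, both without overlap. Hsd17b10, an isoleucine enzyme, averaged 95.2 ± 17.5 FPKM in HKO and 171 ± 63.9 FPKM in Flox, with Flox 2 the highest library and Flox 3 close above the HKO livers. Oat, which degrades ornithine, averaged 509 ± 78.8 FPKM in HKO and 758 ± 206 FPKM in Flox, and Flox 3 lay inside the HKO range. Around phenylalanine hydroxylation, the cofactor gene Qdpr averaged 144 ± 14.6 FPKM in HKO and 175 ± 8.90 FPKM in Flox. Its partner Pcbd1 averaged 309 ± 17.2 FPKM in HKO and 379.8 ± 44.2 FPKM in Flox, and neither gene overlapped between groups. None of these 11 genes passed, with adjusted p from 0.588 to 0.667 in limma. All of them were lower in HKO, while 11 others of the 67 tested had a higher mean. Csad had the highest fold change, with 16.6 ± 7.92 FPKM in HKO and 11.6 ± 5.02 FPKM in Flox (log2 fold change 0.45, adjusted p = 0.753 in limma). Its groups overlapped.

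Regulators known to act on these enzymes went in both directions. Of 14 tested, 5 had a lower and 9 a higher mean in HKO (median 0.079), and 0 passed. Cebpb, a transcription factor induced by glucagon and by inflammation, stood at 65.9, 43.9 and 87.97 FPKM in the HKO livers, against 115, 162 and 99.7 FPKM in the Flox livers, with every HKO liver lower (log2 fold change -0.95, adjusted p = 0.648 in limma). Nfil3, a transcriptional repressor, stood at 15.5, 19.5 and 13.6 FPKM in the HKO livers, against 8.54, 11.8 and 10.8 FPKM in the Flox livers, with every HKO liver higher (log2 fold change 0.59, adjusted p = 0.592 in limma). Klf15, a factor that drives amino acid degradation in liver, averaged 65.1 ± 2.92 FPKM in HKO and 64.6 ± 5.55 FPKM in Flox. The glucocorticoid receptor gene Nr3c1 averaged 12.99 ± 1.998 FPKM in HKO and 12.6 ± 1.09 FPKM in Flox. In both the groups overlapped. Hnf4a, a factor of hepatocyte identity, averaged 124 ± 8.61 FPKM in HKO and 109 ± 5.16 FPKM in Flox, every HKO liver being higher (log2 fold change 0.18, adjusted p = 0.697 in limma).

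Markers of other cells were not level between the groups on the authors' scaling. All 11 Kupffer cell markers had a higher mean in HKO (median log2 fold change 0.70, 0 called), their sum was 222 to 362 FPKM in HKO and 148 to 271 FPKM in Flox, and none was at 0. Endothelial markers were higher in 6 of 7 (0.14), with sums of 26.0 to 35.2 FPKM in HKO and 22.3 to 30.9 FPKM in Flox. In each of these lists the ranges of the sums overlapped. Of the Kupffer cell markers 4 had every HKO library above every Flox library, and 4 were higher at an unadjusted p under 0.05, beside 6.06% and 3.08% of all genes. By library their sum was 362, 222 and 274 FPKM in HKO 1, HKO 2 and HKO 3 and 148, 169 and 271 FPKM in Flox 1, Flox 2 and Flox 3. HKO 3 and Flox 3, which lay together in the enzymes, were close in these markers too. Sums of stellate cell markers were 29.99 to 43.6 FPKM in HKO and 28.9 to 37.4 FPKM in Flox, with 4 of 7 higher, and those of cholangiocyte markers 27.5 to 32.1 FPKM in HKO and 25.8 to 33.98 FPKM in Flox, with 3 of 4 tested higher. B cell markers summed to 1.46 to 2.76 FPKM in HKO and 0.909 to 1.28 FPKM in Flox, with 2 of 2 tested higher and no overlap. T and NK cell markers summed to 2.14 to 3.66 FPKM in HKO and 1.65 to 2.58 FPKM in Flox, also with 2 of 2 higher, and neutrophil markers to 2.15 to 3.80 FPKM in HKO and 1.85 to 5.68 FPKM in Flox, with 2 of 2 lower and Ly6g at 0 throughout. Hepatocyte markers were lower in 4 of 7 and higher in 3, with a median log2 fold change of -0.0066 and sums of 36758 to 46400.0 FPKM in HKO and 43589 to 44820.1 FPKM in Flox. Periportal markers, of the zone in which Hal and Sds are known to be expressed, were lower in 3 of 6 (median 0.020; sums of 1999 to 2917 FPKM in HKO and 2758 to 3089.8 FPKM in Flox). Pericentral markers were lower in 8 of 8 (median -0.17; sums of 5898 to 6554 FPKM in HKO and 6190.5 to 7915 FPKM in Flox). The pericentral list holds Oat and the hepatocyte list holds Hnf4a, both described above, so the lists share genes. The part of these cells and zones in the differences of the enzymes was not tested.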

How the data were processed

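The authors deposited a single table of FPKM, 1 value per gene and library, with a gene length in bases; the submitters' processing notes name the genome builds mm10 and GRCm38, and the sources used here give no aligner, counting tool or annotation release. Libraries were made from total RNA with a NEBNext Ultra kit, per the labels' protocols, which does not mark strand. Reads were recovered from FPKM times length (100% of values above 0 within 0.02 reads of a whole number) and summed to 15804115 to 17954066 per library. The deposited FPKM used a library size of 1.06, 1.01 and 1.03 times these sums in HKO 1, HKO 2 and HKO 3. In Flox 1, Flox 2 and Flox 3 it was 0.972, 0.934 and 1.03 times. A larger size lowers every FPKM of a library, and the assigned-read scaling leaves this factor out. All FPKM of a library summed to 414411, 422735 and 412344 in HKO and to 494433, 491399 and 431497 in Flox.

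Genes of at least 0.5 FPKM in at least 3 libraries (11856) were tested on log2(FPKM + 1) with limma 3.58.1 under R 4.3.3 (trend, robust, statmod 1.5.0), two-sided, with Benjamini-Hochberg adjustment over all of them. The fit was tested on simulated data. Exact permutation of 3 against 3 libraries cannot give a p below 0.1. A library score is the median over genes of the log2 level minus the gene's mean. Alternatives were another pseudocount, no filter, TPM, quantile normalization, assigned-read scaling, a replicate block, voom, and each library left out; a mean of at least 5 FPKM was added after seeing the data. Exon overlaps and copies (blastn 2.17.0, identity of 97% and coverage of 80% or more) came from GENCODE M21, promoters from RefSeq (GRCm38.p6). The HNF1, glucocorticoid receptor and nuclear receptor motifs were shortened after matches to longer forms had been counted. Genes named were any member that passed, the 12 of smallest p, related pairs, and the highest, smallest-p and widest-spread member of each pathway, and up to 3 genes of smallest p in other lists. In the other lists Pipox and Oat were named although Gcat and Agxt2, which were not, had a smaller p in limma. Klf15, Nr3c1 and Hnf4a were added for their role, and Csad for its fold change, once values were known. The members and lists were chosen with earlier results of these data known.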

Additional observations from a re-analysis of the deposited data

How the results depend on the processing

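No member passed in any fit run. The members' median log2 fold change minus that of all genes was -0.11 under quantile normalization and -0.18 under TPM, beside -0.21. It was -0.17 at a mean of at least 5 FPKM and -0.28 to -0.15 with 1 library left out. The median itself was -0.044 under TPM, -0.10 under quantile normalization and -0.28 to -0.16 with 1 library left out. Pathway medians under TPM were -0.15 (tyrosine), -0.12 (tryptophan), -0.028 (histidine), 0.014 (branched-chain), -0.093 (proline), 0.083 (glycine and serine), -0.083 (sulphur), -0.030 (lysine) and -0.18 (aminotransferases). Under quantile normalization they were -0.20 (tyrosine), -0.18 (tryptophan), -0.072 (histidine), -0.093 (branched-chain), -0.14 (proline), 0.058 (glycine and serine), -0.068 (sulphur), -0.073 (lysine) and -0.22 (aminotransferases), and scaled by assigned reads -0.25 (tyrosine), -0.20 (tryptophan), -0.13 (histidine), -0.080 (branched-chain), -0.19 (proline), -0.017 (glycine and serine), -0.18 (sulphur), -0.13 (lysine) and -0.28 (aminotransferases). With 1 library left out they ran over -0.43 to -0.26 (tyrosine), -0.35 to -0.12 (tryptophan), -0.29 to -0.14 (histidine), -0.20 to -0.13 (branched-chain), -0.38 to -0.18 (proline), -0.28 to -0.027 (glycine and serine), -0.33 to -0.19 (sulphur), -0.26 to -0.17 (lysine) and -0.50 to -0.29 (aminotransferases). Members with no overlap numbered 9 scaled by assigned reads (all genes 4.34%), 3 under TPM (2.06%) and 3 under quantile normalization (5.98%), beside 14 (7.21%). With 1 library left out they numbered 14 to 35 (all genes 9.89% to 19.2%). Members lower at an unadjusted p under 0.05 numbered 2 under TPM (all genes 1.34%) and 8 in voom (4.44%), beside 4 (4.55%). With 1 library left out they numbered 2 to 17 (all genes 2.34% to 8.63%). Signs turned under TPM for Tat 0.13, Tdo2 0.12, Kynu 0.094, Bckdhb 0.046, Dbt 0.022, Mccc2 0.048, Auh 0.052, Acadsb 0.050, Hibch 0.0071, Aldh6a1 0.042, Gldc 0.083, Gcsh 0.12, Cbs 0.077, Mat1a 0.0025. Under quantile normalization they turned for Tat 0.11, Tdo2 0.077, Kynu 0.024, Gldc 0.058, Gcsh 0.087, Cbs 0.034, Mat1a 0.043, and scaled by assigned reads for Tat 0.035, Tdo2 0.025, Gcsh 0.021. With 1 library left out the ranges that crossed 0 were Tat -0.26 to 0.22; Tdo2 -0.19 to 0.096; Kynu -0.26 to 0.051; Dbt -0.25 to 0.013; Gldc -0.29 to 0.033; Gcsh -0.15 to 0.017; Sds -0.28 to 0.21. The cause was not tested.

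Over all genes 1 was called lower. The count was 0 with no filter, 0 with the replicate block, 3 in voom, 2 at a mean of at least 5 FPKM and 0 to 12 with 1 library left out (12 without HKO 1), and 0 to 1 were called higher. G3bp1 passed in voom (log2 fold change -0.96, adjusted p = 0.037 in voom). Replicate numbers are shared by the groups. Same-numbered libraries deviated together by r = 0.015 to 0.070 across genes, and the other pairs across groups by r = -0.0999 to 0.0736. With 3 libraries in a group, these values cannot tell whether same-numbered libraries shared a batch. With the block 0 members and 0 genes passed. Sdsl, Acmsd and Afmid, with the fewest reads, are the members most limited by depth.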
